A study of Mus musculus with 2 samples.

Results

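The lipoprotein lipase axis and the lipoprotein receptors of mouse peritoneal macrophages are described here through 7 genes: Lpl, Angptl4, Lmf1, Vldlr, Lrp1, Mylip and Sort1. The array carried 18 probes with one of these gene names, out of 56605 non-control probes for 37325 gene names, and every one of the 18 is reported. The genes were selected on measured values of the same arrays: Angptl4 and Lpl because their probes were bright and lower in MeXis null, and Vldlr because a probe was above background on MeXis null only. Their differences are therefore a description of these arrays and support no test.

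MeXis is a long noncoding RNA gene near Abca1, and the series asks how its loss bears on the cholesterol efflux of macrophages. Peritoneal macrophages, phagocytes of the abdominal cavity, came from WT and from MeXis null mice, both given as bl6. All cells were kept in DMEM medium with serum and antibiotics, and no ligand, lipid load or other treatment is named. RNA pooled from 3 samples per genotype was labelled with Cy3, and each pool was read on 1 one-colour Agilent array. Pooling left no replicate of either genotype, so no p-value is given and every difference is between these 2 arrays. The age and sex of the mice, the way the allele was made and the extent of the deletion are not given in the sources used here.

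Lipoprotein lipase, the product of Lpl, splits the triglycerides of circulating lipoproteins into fatty acids, and macrophages are among the cells that make and secrete it. The enzyme must be folded in the endoplasmic reticulum with the help of lipase maturation factor 1 (Lmf1) and is inactivated outside or inside the cell by angiopoietin-like 4 (Angptl4). Lipoproteins and their remnants are taken up by receptors of one family that includes the VLDL receptor (Vldlr) and LRP1 (Lrp1). The ubiquitin ligase encoded by Mylip, also called IDOL, sends some receptors of this family, the VLDL receptor among them, to the lysosome, and sortilin (Sort1) is a sorting receptor that binds lipoprotein lipase among other ligands. Lpl and Mylip are known target genes of the liver X receptors, and Angptl4 is a known target gene of the PPAR nuclear receptors, which respond to fatty acids.

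Each probe was a 60-base oligonucleotide, and the probes of a gene are numbered from 5′ to 3′ along its transcript. The first 30 bases are shown for the probes on which the results turn, with coordinates on mm9. They identify the 3 Lpl probes designed on the RefSeq transcript, which did not give the same difference. Also shown are the probes that passed 2-fold and the bright Lrp1 probe beside a less bright one. Lpl 4 lies at chr8:71419652-71419711 on the plus strand, Lpl 5 at chr8:71425050-71425109 on the plus strand and Lpl 6 at chr8:71430267-71430326 on the plus strand. Angptl4 was read at chr17:33911880-33911939 on the minus strand, Mylip at chr13:45506979-45507038 on the plus strand and Vldlr 1 at chr19:27324042-27324101 on the plus strand. Lrp1 2 lies at chr10:127024797-127024856 and Lrp1 3 at chr10:126975573-126975632, both on the minus strand. The exon or intron that each probe reads was not worked out, because no mm9 annotation was used here.
Lpl 4: atttaccagggggtcacctggtcgaagtat
Lpl 5: cgaggtttccacaaataaaacctactcctt
Lpl 6: gaacaccaacccacatgcaaaaccccacaa
Angptl4: atggtgctgttgtaggtgctgtggatgcac
Mylip: tgtttccatattctaagttttcacccccac
Vldlr 1: attgtaaactttttcaatggttgggacaat
Lrp1 2: agctttggctatcattacagtaaaataaca
Lrp1 3: tggggttagttcaggggaggtggagtcctc

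WT had 28463 of its 59305 non-control spots (48.0%) well above background, MeXis null had 26257 (44.3%), and no spot was saturated. The lowest signal well above background was 12.1 on WT and 27.3 on MeXis null. Signals are linear intensity units, and differences are log2 of MeXis null minus WT after each array was scaled to its 75th percentile over probes well above background on both. The scanner software gives an error for each signal, and 1.96 times the combined error is called the scanner limit. A wider measure came from 285 probes with at least 5 usable spots per array, where differences of spots of the same probe had a median SD of 0.47, so 0.91 (1.88-fold) was taken as the limit of spot-to-spot spread. Subtracting the median difference of the 100 nearest spots, called local surface correction here, lowered that SD to 0.33 and the limit to 0.64. Of the 285 probes 270 had signals over 1000 on both arrays, and the 15 others gave an uncorrected limit of 0.83. These limits compare spots within 1 pair of arrays and hold no spread between pools or labellings. Both arrays lay on the same slide and scan. The 1 MeXis probe, at 12.3 on WT and 8.44 on MeXis null, stayed too dim on both arrays to check the labels.

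Each of the 7 genes was read from its brightest probe without an outlier mark. Angptl4 and Mylip were at least 2-fold lower in MeXis null, Vldlr was at least 2-fold higher, and the other 4 lay within 2-fold. For comparison, 943 of 17046 measured genes (5.53%) passed 2-fold towards lower values and 1544 (9.06%) towards higher values. Because Angptl4, Lpl and Vldlr were picked for such values, nothing is read from the count of members against these shares. Both arrays read 16 of the 18 probes well above background, the MeXis null array alone read 1, and 1 was dim on both. One of the 16, Sort1 3, carried an outlier mark on WT and was left out of the counts. Sort1 was therefore read from the less bright Sort1 1. With Vldlr 1 counted at its difference, 16 probes were measured. Of these 2 were lower and 2 higher by 2-fold or more, where 5.63% and 9.35% of all 25278 measured probes passed. The median over the 7 genes was -0.49, against 0.01 over the 17046 measured genes. For the same reason nothing is read from this contrast.

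**Figure D1:**
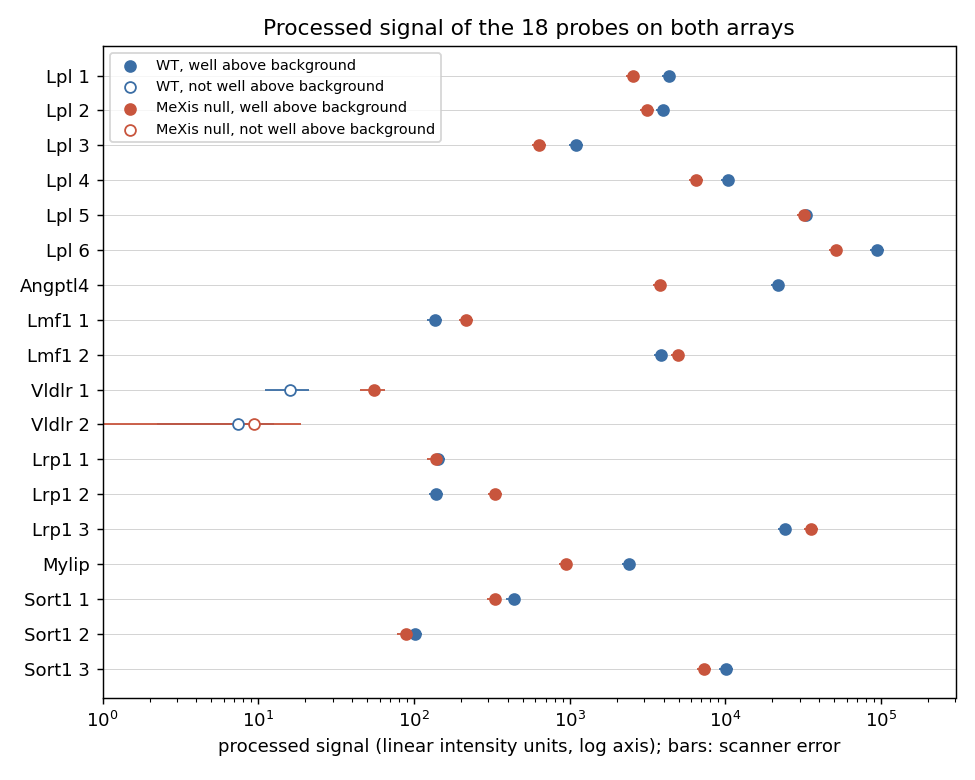
Processed signal of each of the 18 probes on the WT array (blue) and the MeXis null array (red), in linear intensity units on a log axis. Bars are the scanner's error of the signal, filled points are well above background and open points are not. Angptl4 lies at 21622 on WT and 3781 on MeXis null, all 6 Lpl probes lie lower in MeXis null, and Vldlr is the only gene with open points.

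Lpl was lower in MeXis null on all 6 of its probes, by a median of -0.81, but by unequal amounts. The probe nearest the 3′ end, Lpl 6, gave 94237 ± 9424 (scanner error) on WT and 51041 ± 5104 on MeXis null. This was a difference of -0.98, or 1.97-fold lower, just short of 2-fold and just beyond the spot-to-spot limit of 0.91. After local surface correction the same probe was 2.65-fold lower, at -1.41. Over 12 settings, the main one and 11 alternatives, it ranged from -1.41 to -0.92 and passed 2-fold in 6. The value of Lpl therefore stayed on one side of 0 but not on one side of the 2-fold threshold.

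The other probes of the RefSeq transcript of Lpl gave smaller differences. Lpl 4 gave 10368 on WT against 6505 on MeXis null, a difference of -0.76. Lpl 5 read 32847 and 32048, a difference of -0.13 that was within its scanner limit of 0.40. So of 3 probes on one transcript 2 read lower by more than the scanner limit and 1 did not. After local surface correction Lpl 4 was at -0.48 and Lpl 5 at -0.34, and both were within the corrected spot-to-spot limit of 0.64.

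The 3 probes nearest the 5′ end were designed on other transcript records that the array lists under Lpl, at chr8:71405538-71405597, chr8:71408343-71408402 and chr8:71413311-71413370 on the plus strand. Lpl 1 gave 4326 on WT against 2538 on MeXis null, a difference of -0.86. Lpl 2 read 3954 and 3137, a difference of -0.42, and Lpl 3 read 1098 and 636, a difference of -0.88. Each of these differences exceeded its scanner limit and none reached the spot-to-spot limit of 0.91. Lpl 2 moved most with the surface: spots around it were higher on MeXis null by a median of 0.66, and its corrected difference was -1.09. Lpl 1 was at -1.13 and Lpl 3 at -0.86 after the correction. Thus 4 of the 6 probes were beyond the corrected limit of 0.64, and 3 were at least 2-fold lower, whereas none was at least 2-fold lower before it.

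The Lpl probes lay closer to each other than at the median of genes with as many probes. The SD among the 6 differences was 0.33 and their range 0.85. Over the 20 genes on the array with 6 probes above background the median SD was 0.55 and the median range 1.41. Of those 20 genes, 1 had all probes on the same side of 0, and that gene was Lpl. Among the 356 genes with 4 to 8 such probes, 48 had all probes on the same side, 27 of them below 0. Lpl was chosen for its lower signal, so these values describe how far its probes agree and are not a test of the difference.

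**Figure D2:**
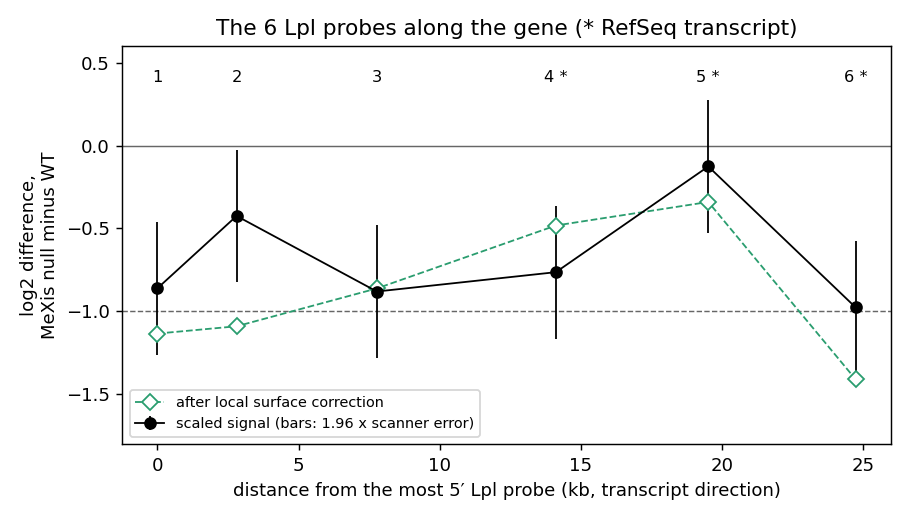
Difference of MeXis null minus WT (log2) for the 6 Lpl probes against their distance in kb from the most 5′ probe, in transcript direction. Black points are scaled signals with bars of 1.96 times the scanner error, green diamonds are values after local surface correction, and asterisks mark the RefSeq transcript. All points lie below 0, with Lpl 5 nearest to it at -0.13 and Lpl 6 furthest at -0.98 before correction.

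Angptl4, the inhibitor of the enzyme, showed the largest difference of the 7 genes and was lower along with Lpl. Its 1 probe gave 21622 ± 2162 (scanner error) on WT and 3781 ± 378 on MeXis null. The difference of -2.61, or 6.09-fold lower, was well beyond both the scanner limit of 0.40 and the spot-to-spot limit of 0.91. Spots around the probe had a median difference of -0.05, and the corrected difference was -2.56. Over the 12 settings the difference ranged from -2.74 to -2.48. For reference, 5% of the 17046 measured genes lay below -1.04. Angptl4 and Lpl were picked for lower signals, so nothing is read from this rank or from their shared direction.

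Angptl8, which acts together with Angptl4 and its relatives, differed by 0.44.

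Lmf1, which the enzyme needs to fold, lay within 2-fold on both of its probes. Lmf1 2, at chr17:25799606-25799665 on the plus strand, gave 3844 on WT against 4945 on MeXis null, a difference of 0.27 that was within its scanner limit of 0.40. Lmf1 1, at chr17:25722737-25722796 on the plus strand, read 136 and 217, a difference of 0.59. Both were on the higher side in MeXis null, and both were inside the spot-to-spot limit. The sign of Lmf1 2 was not stable: it was -0.11 after normexp background correction and between 0.13 and 0.55 in the other 11 settings. Sel1l, whose product acts with Lmf1 in folding the lipase, was lower at -1.60 on its brightest probe (16837 on WT, 5935 on MeXis null) and at -0.16 on another.

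Vldlr, the receptor for triglyceride-rich lipoproteins, was near the detection limit on both arrays. Vldlr 1 read 16.1 ± 4.94 (scanner error) on WT, where it was not well above background, and 55.0 ± 9.75 on MeXis null, where it was. Against its own WT signal, which was above the lowest signal well above background, this was 3.22-fold higher in MeXis null, a difference of 1.69. Because that WT signal was itself not well above background, the value is not a minimum. The difference exceeded its scanner limit of 1.00 and changed little with the surface, at 1.63. With normexp correction and an offset of 50 the value was 0.50. The raw brightness before any subtraction was 41.4 on WT and 85.0 on MeXis null, over a local background of 20.0 on both.

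Vldlr 2, at chr19:27328369-27328428 on the plus strand, could not be used for either direction. Its signals of 7.44 ± 5.20 on WT and 9.39 ± 9.43 on MeXis null were both dim, not well above background, and no fold is given. The higher value of Vldlr thus came from 1 dim probe of 2.

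Lrp1, the large endocytic receptor of remnants and protease complexes, was bright in these macrophages and differed by less than the spot-to-spot spread on its RefSeq probe. Lrp1 3 gave 24000.1 on WT against 35506 on MeXis null, a difference of 0.47, or 1.39-fold higher, beyond its scanner limit of 0.40 but inside 0.91. Its value was above 0 in all 12 settings, from 0.27 to 0.68. The other Lrp1 probes were designed on other transcript records nearer the 5′ end, the first of them 50655 bases away. They were far less bright, though well above background on both arrays.

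These less bright Lrp1 probes did not move together. Lrp1 2 gave 139 on WT against 332 on MeXis null, a difference of 1.17. After local surface correction it was at 0.62, within the corrected limit of 0.64, and after normexp correction at 0.32. Lrp1 1, at chr10:127026228-127026287 on the minus strand and the most 5′ of the 3, read 143 and 137, a difference of -0.15 inside its scanner limit.

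Sort1, the sorting receptor, was on the lower side in MeXis null on all 3 probes, within 2-fold and inside the spot-to-spot limit. Sort1 1, at chr3:108151563-108151622 on the plus strand, gave 436 on WT against 329 on MeXis null, a difference of -0.49. Sort1 2, at chr3:108158404-108158463, read 102 and 88.7, a difference of -0.29 within its scanner limit of 0.46. Sort1 3, at chr3:108164279-108164338, read 10114 and 7290, and its spot on WT was marked as an outlier by the scanner software. With marked spots kept it was at -0.56. After local surface correction the 3 values were -0.30, -0.09 and -0.50.

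Mylip, the ligase that directs some lipoprotein receptors to the lysosome, was the other member gene at least 2-fold lower in MeXis null. Its 1 probe gave 2388 ± 239 (scanner error) on WT and 943 ± 94.7 on MeXis null. The difference was -1.43, or 2.70-fold lower, beyond the scanner limit of 0.40 and the spot-to-spot limit. Local surface correction left it at -1.48, and over the 12 settings it ranged from -1.57 to -1.12. Mylip and Angptl4 were the members that were at least 2-fold lower in all 12.

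Of the receptors that Mylip acts on, Lrp8 was lower on its 1 detected probe. Lrp8 gave 153 on WT against 61.2 on MeXis null, a difference of -1.41, and its other 3 probes were dim on both arrays. The transcripts of the ligase and of this receptor were thus lower on the same array, while Vldlr was read higher from a dim probe. Levels of the receptor proteins were not measured.

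**Figure D3:**
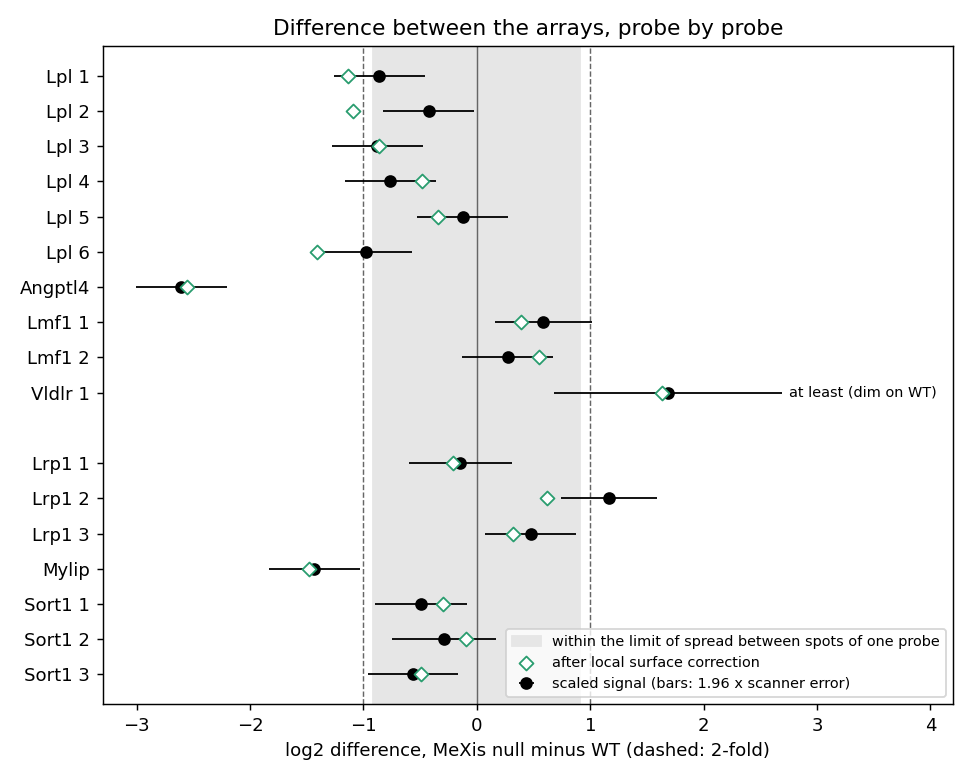
Difference of MeXis null minus WT (log2) for the 17 member probes well above background on at least 1 array. Black points are scaled signals with bars of 1.96 times the scanner error, green diamonds are values after local surface correction, the grey band is the spot-to-spot limit of 0.91 and dashed lines mark 2-fold. Angptl4 and Mylip lie left of the band before and after correction. Vldlr 1 lies right of it, and Lrp1 2 moves into the band after correction. The label "at least" marks Vldlr 1 as dim on WT, and its value is not a minimum.

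Other genes of the lipase axis and of the lipoprotein receptor family did not share one direction. Of 44 such genes, 42 had a usable spot and 29 were measured. At 2-fold 4 were lower, among them Sel1l, Lrp8 and Scarb1, and 3 higher (Apoc3, Sdc4 and Stab1), where 5.53% of all genes were lower and 9.06% higher. There were 16 below 0 and 13 above, with a median of -0.10 against 0.01 over all genes. After local surface correction 6 were lower and 1 higher, with a median of -0.28. Lipa and Cd36 were left out because their spots carried outlier marks.

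The lipase cofactor and anchoring genes differed among themselves. Apoc2, the activator of lipoprotein lipase, was lower on both probes, at -0.88 (2172 on WT, 1259 on MeXis null) and -1.60. Apoc3, an inhibitor, was well above background on MeXis null only, with 15.7 on WT and 53.3 on MeXis null. Gpihbp1, which anchors the enzyme to capillary endothelium, was near the detection limit at 40.3 and 47.2, a difference of 0.14. Sdc4, a heparan sulfate proteoglycan that can hold the enzyme at the cell surface, was higher at 1.30 (467 on WT, 1225 on MeXis null). After local surface correction Sdc4 was at 0.88, within 2-fold. Apoe, a ligand of these receptors, differed by 0.16.

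Receptors and chaperones of the family were mixed too. Scarb1, the HDL receptor, was at -1.28 on its brighter probe (-0.97 after local surface correction) and at 0.35 on the other, so its probes disagreed. The scavenger receptor gene Stab1 was at 1.23, or 0.96 after local surface correction. Lrpap1, the chaperone of LRP1 and its relatives, was at 0.46 and -0.05 on its 2 probes. Sorl1, a relative of sortilin, was at -0.56.

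None of the other measured PPAR-responsive lipid genes was as low as Angptl4. Angptl4 was picked for its lower signal, so nothing is read from this contrast, and a part of PPAR was not tested. The list also holds receptor genes, Ppard, Pparg and Rxra among them. Of 24 such genes, Angptl4 left out, 21 were measured, none was at least 2-fold lower, and 1, Fabp5, was higher. The shares over all genes were 5.53% lower and 9.06% higher. There were 16 below 0 and 5 above, and the median of -0.18 lay inside the middle range of all genes, whose quartiles were -0.38 and 0.45. Fabp5, an intracellular fatty acid carrier, gave 32877 on WT against 187575 on MeXis null, a difference of 2.42, reduced to 1.49 by local surface correction. Pparg differed by -0.04 and Ppard by 0.52, the latter -0.05 after correction. Plin2, the coat protein of lipid droplets, was at -0.63 on its brighter probe and at 0.24 on the other.

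Of genes that take up and store the fatty acids released by the enzyme, 2 were at least 2-fold lower and 1 higher. Over all genes 5.53% were lower and 9.06% higher. Of 25 genes 22 were measured, with 15 below 0, 7 above and a median of -0.14. The lower ones were Mgll, the monoglyceride lipase, at -2.04 (28121 on WT, 7272 on MeXis null) with a second probe at -0.41, and Acsl3, an acyl-CoA synthetase, at -1.35. The higher one was Slc27a3, a fatty acid transport protein gene, at 1.31 (35.6 on WT, 93.8 on MeXis null).

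**Figure D4:**
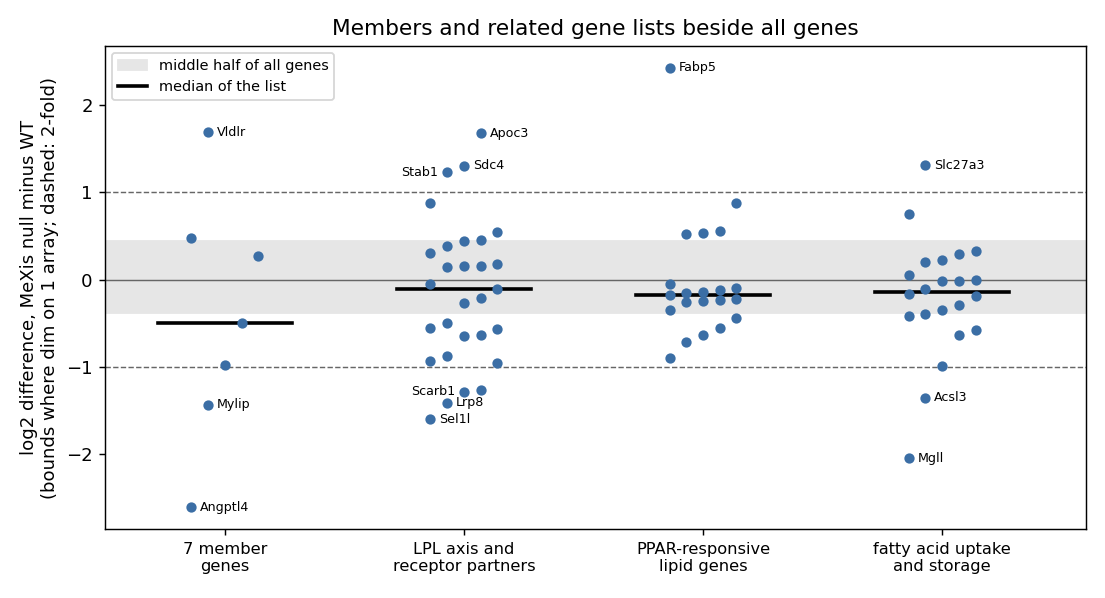
Difference of MeXis null minus WT (log2) for the 7 member genes and for 3 lists of related genes without the members. The axis label calls points of genes dim on 1 array bounds. Each of them is the difference of the gene's own signals and not a minimum. Each point is a gene, black lines are list medians, the grey band spans the quartiles of all genes and dashed lines mark 2-fold. The members' median is -0.49, and the medians of the 3 lists are -0.10, -0.18 and -0.14. Angptl4, Lpl and Vldlr were picked for their values, so nothing is read from this contrast.

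In pooled RNA of a cell preparation, fewer cells of a type and less RNA per cell cannot be told apart. Lpl and Angptl4 are also made in quantity by adipocytes. Of 11 adipocyte markers 8, Adipoq, Plin1, Plin4, Cidea, Cidec, Retn, Cfd and Aqp7, were dim on both arrays, not well above background. The other 3 were well above background on both. Lep read 137 on WT and 107 on MeXis null, Adrb3 63.6 and 102, and Lipe 106 and 112. The summed signal of the adipocyte list, in units of each array's 75th percentile, was 0.146 on WT and 0.144 on MeXis null. Macrophage markers were present, with 13 of 14 above background on both arrays (all except Timd4) and a median of 0.41, or 0.05 after local surface correction. Their sum was 194 on WT and 263 on MeXis null. In this list Mertk was lower, at -1.96, and Lyz2 higher, at 1.23. After local surface correction Mertk was at -1.16 and Lyz2 at 0.52, within the corrected spot-to-spot limit of 0.64.

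Markers of other cells moved between the arrays beside the members. For comparison, 5.53% of all genes were at least 2-fold lower and 9.06% higher. All 8 mesothelial markers were above 0, with 4 at least 2-fold higher, a median of 0.97 and a sum of 0.474 on WT and 1.06 on MeXis null. Of 12 fibroblast markers 10 were measured, with 5 higher, 1 lower, a median of 0.91 and a sum of 3.76 and 6.32. Of 8 endothelial markers 6 were measured, with 2 higher (Esam and Egfl7) and 1 lower (Pecam1), a median of 0.22 and a sum of 2.46 and 2.70. Cdh5 and Tek were not well above background. Vwf was bright, at 4647 on WT and 5355 on MeXis null, and Kdr read 338 and 446. All 7 measured B cell markers of 8 were below 0, with 2 at least 2-fold lower, a median of -0.92 and a sum of 1.82 and 1.11. Of 7 eosinophil markers 3 were measured, with 2 lower, a median of -3.81 and a sum of 2.06 and 0.728, while Epx, Prg2 and Ccr3 were not well above background. The part of these cells in the differences of Lpl, Angptl4, Mylip and Vldlr was not tested.

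RefSeq promoter windows (GRCm38.p6, 250 bases before to 50 after the start) were at hand for Lmf1, Lrp1, Mylip and Vldlr. None of their 5 windows held the nuclear receptor half-site AGGTCA on either strand, nor direct repeats of it with 1 base (DR1) or 4 bases (DR4) between at no more than 2 mismatches over 12 bases. Over 32851 promoters of the same length these were found in 16.3%, 3.86% and 3.02%. The absence says only that these letters are not in these windows.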

How the data were processed

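RNA of WT and MeXis null peritoneal macrophages, a pool of 3 samples each, was read on 1 array per genotype, so precision is limited by 1 array a group. Per the file headers, the deposited intensity of each spot was made with Agilent Feature Extraction 11.5.1.1, which took off background and a fitted surface trend, and probe coordinates are on mm9. The deposited matrix of the series held the same intensity values for each of the 62976 features (medians 12.9 on WT and 17.0 on MeXis null), so it is linear and not centred, and it held 0 columns of other samples.

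The values computed here are log2 processed signals minus each array's 75th percentile, taken over probes that both arrays read well above background, since under 50% of spots reached that level. Control spots and outlier-marked spots (305 on WT, 205 on MeXis null) were left out, spots of a probe were averaged, and a gene was read from its brightest probe. A probe above background on 1 array got a bound: on the dim array its own signal was used, or the lowest signal called above background there if that was higher. Where its own signal was used, the value is a difference and not a minimum. Names of 32994 probes were updated by accession through a RefSeq gene table (GRCm38.p6), from which only names were taken. Lmf1, Lrp1, Mylip and Vldlr had entries among the RefSeq promoters, and Lpl, Angptl4 and Sort1 were not analysed there.

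The members and gene lists were chosen with earlier results of these data known. The text names every probe of the members, every list gene past 2-fold, and Gpihbp1, Apoc2, Apoe, Ppard, Pparg, Lrpap1, Sorl1 and Plin2 whatever their value. Under this rule 2 further genes were due to be named, and they are not reported here. Angptl8 was named after its value was seen. Alternatives tried were background correction by normexp (offset 50, limma 3.58.1 in R 4.3.3), other scalings (75th percentile over all probes, median, spike-in probes), quantile and loess normalization (span 0.3), local surface correction, marked spots kept, the matrix values, a stricter or no filter on dim probes, thresholds of 1.5-fold and 3-fold, and the median of a gene's probes. The steps were tested on simulated data.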

Additional observations from a re-analysis of the deposited data

How the results depend on the processing

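No paired analysis was possible because each genotype had 1 array, and for the same reason no replicate could be left out. Of the results run under the alternatives, none with a call changed its sign, and 223 of the values that answer a comparison stayed close to the main value while 35 moved. With normexp correction the Vldlr value was 0.50, 0 member genes were higher, and 1 PPAR-responsive gene was lower and 0 fatty acid uptake genes higher. The stricter filter gave 0 higher member genes, 2 lower partners of the lipase axis, and 1 lower and 0 higher uptake genes. At 3-fold 1 member gene was lower, and partners were 1 lower and 1 higher, uptake genes 1 lower and 0 higher. At 1.5-fold 9 partners, 3 PPAR-responsive genes and 4 uptake genes were lower, and 2 PPAR-responsive and 2 uptake genes higher. Spike-in scaling gave 7 lower partners. Spike-in scaling, quantile normalization and loess each gave 1 lower PPAR-responsive gene. Local surface correction gave 1 higher partner and no filter gave 6.

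Over all genes 943 were lower and 1544 higher. The numbers lower and higher were 870 and 879 with normexp, 1337 and 1185 with spike-in scaling, 1437 and 1232 with loess, 1837 and 6377 with no filter, 581 and 908 with the stricter filter, 2691 and 3347 at 1.5-fold, and 245 and 490 at 3-fold. Local surface correction left 906 higher. Spike-in scaling moved the median of all genes from 0.01 to -0.12, and having no filter moved it to 0.46. The cause of these moves was not tested, except that thresholds and filters change which genes count. Lpl 6 was past 2-fold in 6 of 12 settings, Lrp1 2 in 10, Vldlr 1 in 10 of 11, and Angptl4 and Mylip in all 12. Signal over background limits Vldlr, whose probes lay near the lowest signal called above background.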
